A study of Capsicum annuum with 12 samples.

Results

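Trimethylation of lysine 4 of histone H3 (H3K4me3) was mapped in pepper (Capsicum annuum, cultivar 59), in young leaves, by chromatin immunoprecipitation and sequencing. The H3K4me3 landscape described here consists of the 31452 shared regions on the 12 chromosomes, each an interval of at least 100 bp covered by peaks of both H3K4me3 libraries. They are 31452 of the 64546 shared regions that the same rule gives for 3 histone marks. They were chosen by antibody and overlap with no limit on peak height beyond that of the deposited lists, but low peaks were less often found in both lists. The lowest −log10 of the q-value was 2.02 in each H3K4me3 list. The series has 12 samples, of which 6 are immunoprecipitated libraries with a peak list (2 each for H3K4me3, H3K27me3 and H3K9me2) and 6 are inputs, sheared chromatin sequenced without an antibody. All samples share the cultivar and the tissue, and no treatment or genotype contrast exists. The H3K4me3 libraries were made with antibody ab8580 and each was called against an input. The labels do not say whether replicates 1 and 2 came from separate plants, so a difference or agreement between them may be technical. The lists hold positions without genes, so neither the labelled tissue nor the genes under the regions could be checked, and positions below are those of the lists, whose sequence names carry the prefix Ca_59Chr.

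H3K4me3 is laid down in plants and animals by methyltransferases of the Trithorax type working in COMPASS-like complexes. In plants it is best known as a narrow domain over the first nucleosomes downstream of the transcription start of active genes, where proteins with PHD fingers can bind it. A leaf holds several cell types, and a region seen in whole leaf may carry the mark in all of them or in some.

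The depth of a peak is given here as the number of fragments over its summit, its highest point, recovered as a whole number from the authors' fold enrichment and p-value. Replicate 1 had 34467 and replicate 2 33855 peaks on the chromosomes. The median peak had 73 fragments in replicate 1 and 80 in replicate 2. The weakest peaks rested on 7 and 8 fragments, and the strongest on 1849 and 2222. Replicate 2 stood apart in 2 respects: it held 9 peaks with a local background above 50 fragments, against 0 in replicate 1, and some of its strongest peaks were far higher than in replicate 1.

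Most H3K4me3 regions were between 500 bp and 2 kb wide, and a separate group of very narrow regions was also seen. The median shared region was 807 bp wide, with 504 and 1094 bp as the lower and upper quartiles and 1889 bp as the 95th percentile. In classes of 100 bp, the counts had 2 high points. There were 2762 regions of 200 to 300 bp, 2196 of 400 to 500 bp and 3144 of 800 to 900 bp. The peaks of each replicate also had 2 high points, with 3753, 2507 and 3125 peaks in these classes in replicate 1 and 3335, 2336 and 3154 in replicate 2. In each list the narrow class was the fuller of the 2, whereas among shared regions it was the lower, and the low point between them was at 500 to 600 bp, with 2330 and 2149 peaks. The narrowest peak was 201 bp in replicate 1 and 206 bp in replicate 2, so the narrow high point sits at the lower end of what either list holds.

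By class, each including its lower limit and not its upper, 7753 regions (24.7%) were under 500 bp, 13733 (43.7%) were 500 bp to 1 kb, 8663 (27.5%) were 1 to 2 kb and 1303 (4.14%) were 2 kb or more. The 95% Wilson intervals of these shares were 24.2 to 25.1%, 43.1 to 44.2%, 27.1 to 28.0% and 3.93 to 4.37%, and they cover counting error only. The shares of marked bases ran differently, at 9.19%, 37.8%, 40.8% and 12.2%. Regions of 1 kb or more were thus a minority by number but held more of the marked length than the narrower ones. Across chromosomes the share of the narrowest class lay between 22.2 and 26.5%, and that of the widest between 3.05 and 5.29%.

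Wider regions were also taller. The median region under 500 bp had 22 fragments over its summit in replicate 1 and 24 in replicate 2. The medians were 98 and 103 fragments at 500 bp to 1 kb, 194 and 201 at 1 to 2 kb, and 259 and 270 at 2 kb or more. Taken as a ratio, the step was steepest between the 2 narrowest classes in both replicates. Over all 31452 regions Spearman's rho between width and fragments was 0.684, a description in which both values come from the same fragments. The 5th to 95th percentile of fragments spanned 11 to 100 in the narrowest class and 66 to 856 in the widest in replicate 1, so the classes overlapped in height. Each region was given the fragments of its parent peaks, whose summits can lie outside it. Of the regions under 500 bp, 87.5% were formed by a single peak of each list, so some others carry the height of a summit elsewhere. Local background moved less than height, with medians of 1.73 in the narrowest and 2.30 in the widest class of replicate 1 and 2.01 and 3.01 in replicate 2.

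**Figure D1:**
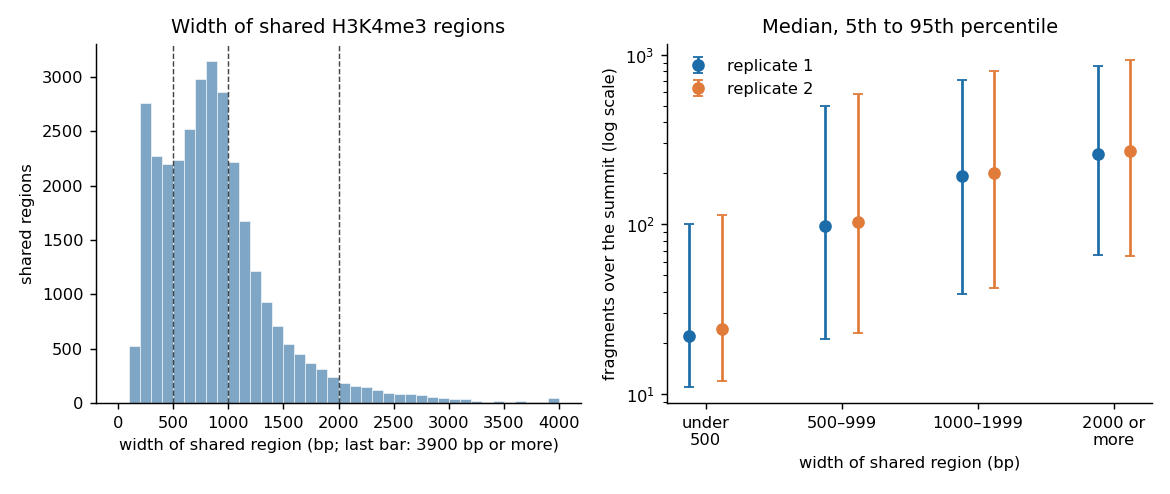
Left, number of shared H3K4me3 regions per 100 bp of width, with dashed lines at the class limits of 500, 1000 and 2000 bp. Right, fragments over the summit by width class on a log scale, as medians with bars from the 5th to the 95th percentile over regions, for replicates 1 and 2; medians are 22 and 24 fragments in the narrowest and 259 and 270 in the widest class.

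Assignment to a width class repeated between replicates for most regions. Of the 29516 regions formed by a single peak of each list, 24343 (82.5%) had parent peaks of the same class. Changes went almost always to the neighbouring class. Of the replicate 1 peaks under 500 bp, 78.2% were in that class in replicate 2 and 21.3% were at 500 bp to 1 kb. Of those of 2 kb or more, 86.4% kept the class and 13.5% were at 1 to 2 kb. Start and end positions each differed by a median of 35 bp between replicates. Pearson's r of log2 width between replicates was 0.916 over these regions, which share a genome and a caller.

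The summit moved from the middle of a peak to its flanks as peaks widened. In peaks under 500 bp the central 20% of the width held 41.7% of summits in replicate 1 and 41.8% in replicate 2. That share was 33.4 and 33.4% at 500 bp to 1 kb, 24.96 and 24.3% at 1 to 2 kb, and 16.9 and 17.7% at 2 kb or more. A share of 20% would mean no preference for the centre, and the widest class lay below it in both replicates, with 95% Wilson intervals of 15.2 to 18.8% and 16.0 to 19.7%. Cut more finely, the central share was 43.4% in replicate 1 and 42.6% in replicate 2 for peaks of 200 to 400 bp. For those of 2800 to 3000 bp it was 10.6% of 123 peaks and 16.0% of 125 peaks.

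The distribution of summits had a single hump in narrow peaks and 2 humps in wide ones. In classes of 5% of the width, peaks under 500 bp were fullest next to the centre, with 11.2% of summits in 1 such class in each replicate. Peaks of 500 bp to 1 kb had a plateau, with 8.06 to 8.59% in each class between 30 and 70% of the width in replicate 1. Peaks of 1 to 2 kb were fullest around 27.5 and 72.5% of the width, at 8.11 and 8.30% in replicate 1 and 8.46 and 8.58% in replicate 2, against 6.05 and 6.30% just right of the centre. Peaks of 2 kb or more were fullest around 82.5% of the width, at 8.16 and 8.20%, and nearly as full around 17.5%, at 8.03 and 8.14%, while the class at 42.5% held 3.90 and 3.86%. The humps thus stood apart from the middle in both replicates, and nearer to the ends in the widest class.

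**Figure D2:**
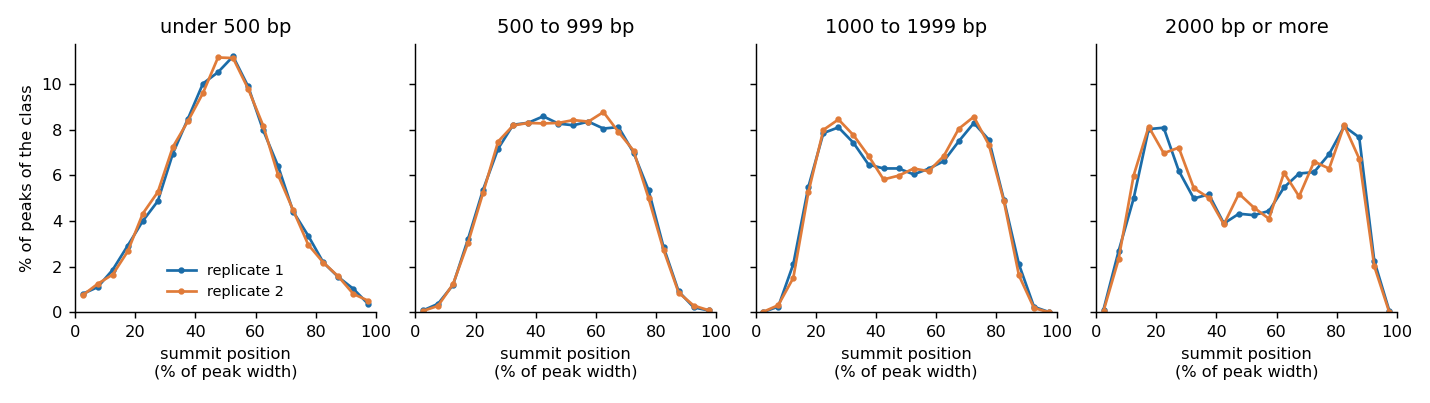
Position of the summit as a percentage of peak width, in classes of 5%, for H3K4me3 peaks of 4 width classes; lines are replicates 1 and 2 and the y axis is the percentage of the class. The single hump of peaks under 500 bp gives way to 2 humps around 27.5 and 72.5% at 1 to 2 kb and around 17.5 and 82.5% at 2 kb or more.

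In base pairs, the distance from the summit to the nearer edge grew more slowly than the width. Its median was 113 and 115 bp in peaks under 500 bp (replicates 1 and 2), 256 and 260 bp at 500 bp to 1 kb, 392 and 389 bp at 1 to 2 kb, and 642 and 640 bp at 2 kb or more. As a share of the width this distance was 37.4 and 37.4% in the narrowest and 25.4 and 26.0% in the widest class. By definition this share cannot exceed 50%, and summits placed evenly along the width would give 25%.

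Wide peaks preferred no side. The summit lay in the left part of the peak in 50.4% and 50.01% of peaks of 1 to 2 kb, and in 48.5 and 50.2% of those of 2 kb or more, with all 4 Wilson intervals including 50%. Peaks under 500 bp had a small excess on the left, 51.6 and 52.4%, with intervals of 50.6 to 52.6% and 51.3 to 53.4%. This excess was not particular to H3K4me3, since peaks under 500 bp had 52.3 and 53.2% for H3K27me3 and 51.4 and 52.1% for H3K9me2. The lists carry no strand or gene, so left and right are chromosome directions and could not be turned into upstream and downstream. The side to which a given region leaned was the same in both replicates for most regions. Both replicates put the summit on the same side of the centre of their own peak in 60.8% of single-peak regions under 500 bp, 83.6% at 500 bp to 1 kb, 90.4% at 1 to 2 kb and 94.2% at 2 kb or more. Among the 664 widest regions whose summit was more than 20% of the width off centre in both, 656 (98.8%) leaned to the same side.

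Summits themselves fell on nearly the same base. The median distance between the summits of replicates 1 and 2 was 19 bp over the 29516 single-peak regions, with quartiles of 8 and 46 bp. It was within 50 bp in 76.9% and within 100 bp in 87.5% of regions. By class the median was 30 bp under 500 bp, 17 bp at 500 bp to 1 kb, 16 bp at 1 to 2 kb and 18 bp at 2 kb or more, so it was largest where the fragments were fewest. Jumps of over 500 bp occurred in 360 regions (1.22%), and in 4.05% of the widest class.

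The longest regions showed the same features. The longest, 7212 bp on chromosome 2 from 161562310 to 161569521, had 647 and 631 fragments, and its summits stood 1 bp apart at 82.4 and 79.8% of the widths of the peaks. The next, 6487 bp on chromosome 4 from 47526706 to 47533192, had 427 fragments in both replicates and summits 8 bp apart near 82.6 and 82.8%. Those on chromosome 3 from 256928485 to 256934935 (6451 bp) and on chromosome 12 from 13065454 to 13071407 (5954 bp) leaned the other way. Their summits were at 15.1 and 16.1% and at 5.67 and 5.80% of the widths, 31 and 7 bp apart, with 664 and 651 and with 595 and 584 fragments. The region of 5823 bp on chromosome 5 from 4319437 to 4325259 had the most fragments of the 5, 1023 and 1048, with summits 13 bp apart at 73.5% of the width. In none of these 5 regions did either summit fall in the central 20% of its peak.

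Set against the other marks, the H3K4me3 libraries had the widest median peaks, in a permutation test with too few arrangements to pass the threshold. The median peak of the H3K4me3 libraries was 815 and 839 bp, against 462 and 465 bp for H3K27me3 and 295 and 298 bp for H3K9me2. The difference of the group means was 447 bp (827 ± 16.97 bp, n = 2, against 380 ± 96.4 bp, n = 4, SD over libraries), with an exact two-sided permutation p of 0.0667, the smallest that 15 arrangements allow, and an adjusted p of 0.333 over 5 measures by the Benjamini-Hochberg method. This permutation of 2 against 4 libraries could not reach 0.05 for any of the 5 measures. Median peaks also differed in height: 73 and 80 fragments for H3K4me3, 21 and 20 for H3K27me3, 15 and 15 for H3K9me2. The part of height, or of a caller cutting wide domains into several peaks, in the width difference was not tested. The share of peaks of 1 kb or more was 33.7 and 35.1%, against 18.3, 17.5, 1.07 and 1.09% (exact permutation p = 0.133, adjusted 0.333). For the other 3 measures the exact p was larger, and the libraries of the other marks lay on both sides of those of H3K4me3. The median gap between peaks was 18.6 and 19.4 kb, against 1.92 and 2.18 kb for H3K27me3 and 76.1 and 94.2 kb for H3K9me2 (exact permutation p = 0.6, adjusted 0.6). The share of 1 Mb bins without a peak was 5.07 and 4.85%, against 16.2, 19.1, 2.57 and 5.79% (exact permutation p = 0.333, adjusted 0.556), and the median summit offset from the centre was 15.8 and 15.8% of the width, against 15.7, 15.6, 18.2 and 18.7% (exact permutation p = 0.467, adjusted 0.583).

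Spacing along the chromosomes ranged over more than 4 powers of 10. The 31440 gaps between neighbouring regions had a median of 21.5 kb and a mean of 96.6 kb, with quartiles of 6.76 and 79.7 kb. The median depended on the narrow regions, and among shared regions of at least 500 bp it was 32.6 kb. The shortest gap was 202 bp and the longest 5.14 Mb. Gaps under 1 kb made up 8.51% (2677), gaps of 10 to 30 kb 24.1% (7587), and gaps of 1 Mb or more 1.16% (365). Those 365 gaps held 16.99% of all gap bases, and the gaps of 300 kb to 1 Mb, 7.69% of the number, held 41.7%. On a log scale the gaps formed a broad hump around 10 to 30 kb and a smaller rise at the shortest distances. Per 0.1 of a log10 unit, 5.23% of gaps lay at a log10 of 4.25 (in bp), 0.980% at 2.85 and 1.58% at 2.35. The class at 2.25 and those below it were empty for the shared regions and for each list. The rise thus sits at the lower end of what the lists hold.

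Regions with a very close neighbour were narrower and lower than the others. Where the gap was under 1 kb, the median width of the 2 regions was 547 bp, and the weaker and stronger of the pair had medians of 23 and 87 fragments in replicate 1 and 25 and 91 in replicate 2. Of these 2677 pairs, 995 (37.2%) had a single peak of a list under both regions, so that their members are pieces of that peak and share its fragments. The other 1682 pairs, with separate peaks in both lists, had a median width of 575.5 bp and medians of 21 and 97.5 fragments in replicate 1 and 23 and 101 in replicate 2. At gaps of 10 to 30 kb the width was 829 bp and the medians were 45 and 193 fragments in replicate 1 and 47 and 205 in replicate 2. Beyond 3 kb these values changed little with distance up to 300 kb, and they were highest across gaps of 1 Mb or more, at 874 bp with 75 and 228 fragments in replicate 1 and 77 and 234 in replicate 2. Joining peaks within 1 kb left 28739 regions with a median width of 876 bp.

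**Figure D3:**
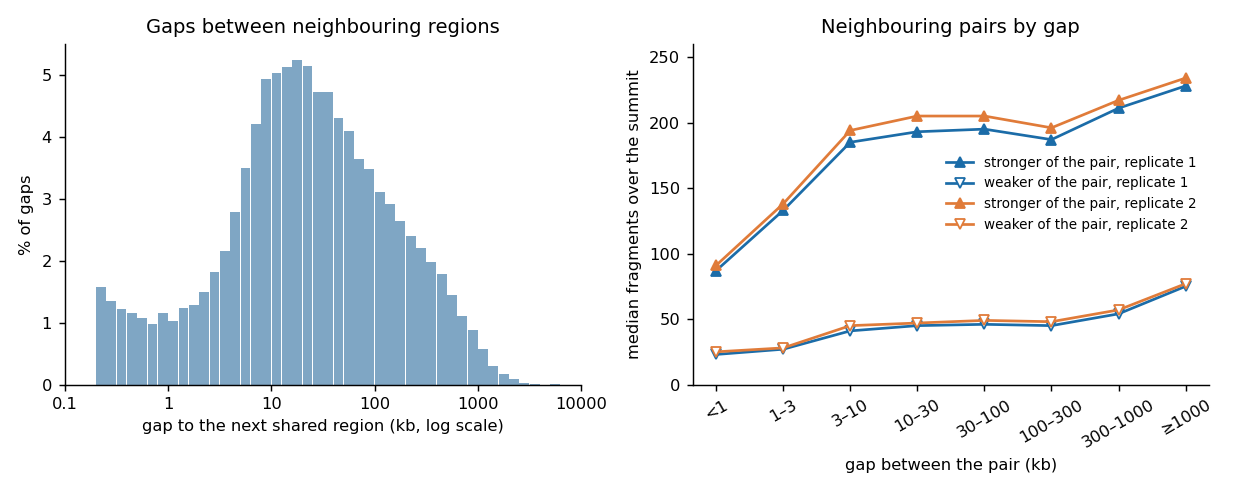
Left, gaps between neighbouring shared H3K4me3 regions on a log scale, as the percentage of 31440 gaps per 0.1 of a log10 unit. Right, median fragments over the summit for the stronger and the weaker region of neighbouring pairs, by the gap between them, in replicates 1 and 2; pairs under 1 kb apart stand lowest, at 87 and 91 fragments for the stronger member.

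Many regions stood in company. A neighbour within 10 kb was present for 51.4% of regions, while 3070 (9.76%) had none within 100 kb. Runs of at least 5 regions with gaps under 10 kb numbered 535 and held 10.6% of regions, and the longest run had 15. A near neighbour was most frequent at both ends of the width range, for 62.1% of regions under 500 bp and 59.4% of those of 2 kb or more, against 46.1 and 49.2% in the classes between. The narrowest and widest classes also had the lowest shares of single-peak regions, 87.5 and 92.9% against 96.3 and 95.8%. Their shares in the outer 15% at each chromosome end were the highest, 65.1 and 68.5% against 59.1 and 61.0%. The part of either in the near neighbours was not tested.

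The tightest 10 consecutive regions spanned 28.7 kb on chromosome 8 from 170596565 to 170625246, at 98.0% of the chromosome's length. Its members had 9 to 486 fragments in replicate 1 and 20 to 450 in replicate 2. Those next in tightness spanned 29.3 kb on chromosome 10 from 244427931 to 244457240 and 29.6 kb on chromosome 5 from 4238186 to 4267776, at 98.4 and 1.67% of the length. All 3 runs thus lay in the outermost 5% of a chromosome. Some of their regions were pieces of 1 peak: the runs held 10, 10 and 8 peaks of replicate 1 and 9, 9 and 9 of replicate 2. The longest gaps were 5.14 Mb on chromosome 12 from 226592664 to 231733835, 3.56 Mb on chromosome 7 from 153990892 to 157548325 and 3.50 Mb on chromosome 4 from 237943494 to 241439730. Their centres lay at 87.5, 58.2 and 95.6% of the length, so 2 of the 3 were in distal parts. The first held 1 replicate 1 peak of 14 fragments, the next 1 peak in each replicate of 15 and 19 fragments, and the last no peak of either.

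Density was highest at chromosome ends and lowest inside. Each chromosome was cut into 20 equal parts, and the last peak end over all lists stood for its length. The densest part was the first or the last on 12 of 12 chromosomes, the first on 7 and the last on 5. Averaged over chromosomes, density relative to the chromosome's mean was 3.25 ± 1.38 in the first part (SD, n = 12 chromosomes) and 3.09 ± 1.18 in the last, against 0.314 ± 0.115 in the part from 50 to 55% of the length. The middle of the chromosomes, from 30 to 70% of the length and thus 40% of the span, held 4955 regions (15.8%), while the outer 15% at each end, 30% of the span and called distal here, held 19337 (61.5%). In bins of 1 Mb the median count was 5 and the highest 94. The densest 10% of bins held 44.2% of regions, the sparsest 50% held 12.2%, and 166 of 3074 bins (5.40%) had none.

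The chromosomes differed in how this profile was laid out. On chromosomes 1, 3, 4 and 6 the left end dominated, with 31.9, 48.3, 44.4 and 48.5% of regions in the left 15%, against 14.7, 24.3, 20.4 and 14.8% in the right 15%. Their densest parts had 42.6, 61.0, 47.0 and 56.2 regions per Mb. Chromosome 3 had the steepest contrast, with 1.66 regions per Mb in its sparsest part, a ratio of 36.8.

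On chromosomes 2, 7, 8 and 10 the right end dominated. Chromosome 2 held 51.5% of its regions in the right 15% and 5.47% in the left, and its density was 30.6 per Mb at 75 to 80% of the length and 74.8 per Mb at the tip, the highest of all parts of all chromosomes. Chromosome 8 held 54.1% in the right and 6.59% in the left 15%. It was nearly level at 51.6, 48.7, 50.2 and 56.6 per Mb over its last 4 parts, next to 11.8 per Mb in the part before them, and had 2.07 to 2.30 per Mb between 5 and 25% of the length. Chromosomes 7 and 10 held 43.1 and 39.4% in the right 15%, against 21.7 and 22.5% in the left.

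Chromosomes 5, 9, 11 and 12 were close to even, with 34.0, 32.1, 31.4 and 29.9% in the left 15% and 29.8, 28.1, 30.8 and 33.4% in the right. The first 3 of them had the lowest densities of the genome, 7.48, 7.07 and 7.29 regions per Mb, against 18.5 per Mb on chromosome 2, while chromosome 12 had 8.77. Chromosome 1, the longest, was the least distal at 46.6%. It had 3 rises inside its ends, 17.2 per Mb at 15 to 20%, 13.7 per Mb at 55 to 60% and 23.0 per Mb at 75 to 80% of the length, the last of them denser than its own right tip at 17.3. Its densest part had 11.3 times the density of its sparsest, the lowest such ratio of the 12 chromosomes. The right and left ends are those of the sequence, and centromere positions were not used.

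**Figure D4:**
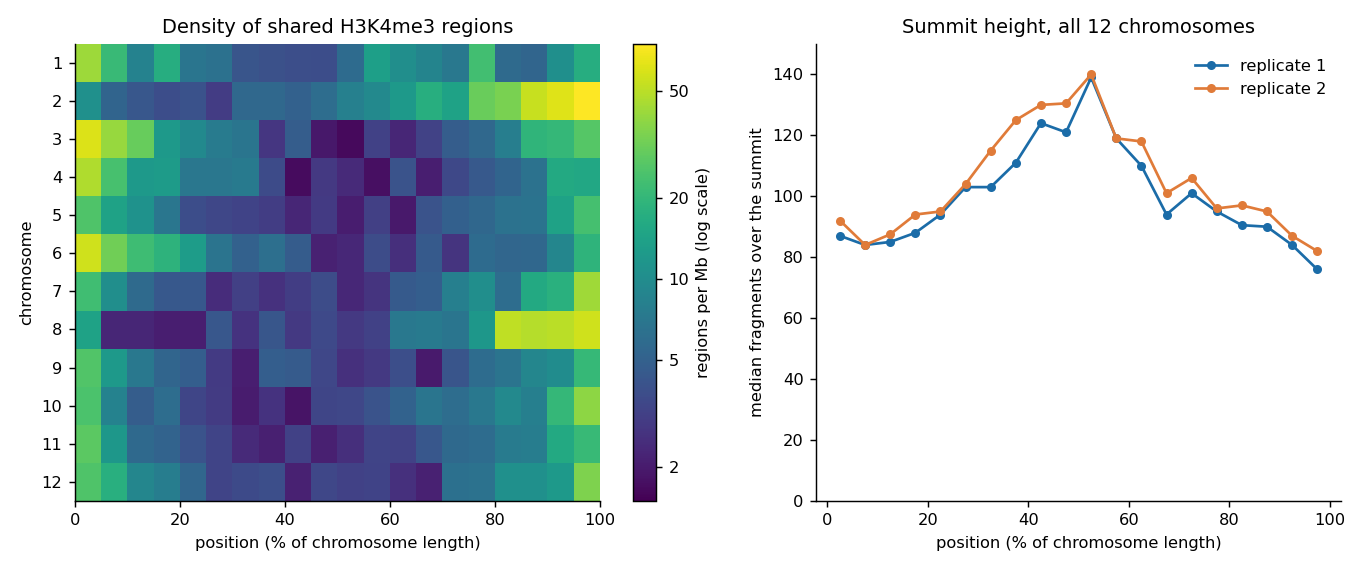
Left, shared H3K4me3 regions per Mb (log colour scale) in 20 equal parts of each of 12 chromosomes. Right, median fragments over the summit of the shared regions in each part over all 12 chromosomes, in replicates 1 and 2; height is 139 and 140 fragments in the part from 50 to 55% of the length and 76 and 82 in the last part, where density is high.

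The sparse middle carried taller regions. The median region of the middle had 113 fragments in replicate 1 and 120 in replicate 2, against 84 and 88 in distal parts. In the part from 50 to 55% of the length, which held 493 regions, the medians were 139 and 140, against 76 and 82 in the last part. The middle was higher on 10 of 12 chromosomes in both replicates. On chromosome 2 the order was turned, at 96 and 104 fragments in the middle against 109 and 111 in distal parts, and on chromosome 8 the values were equal, at 103 and 112 in both places. Local background did not move with position in this way, with medians of 1.73 and 2.38 in the middle against 1.74 and 2.51 in distal parts, so the authors' fold followed the fragments, at 38.1 and 36.0 against 28.0 and 26.3. These medians are over regions of 1 genome and carry no test.

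The middle and the ends also differed in the widths they held. Regions under 500 bp were 19.7% of the middle and 26.1% of distal parts, and those of 500 bp to 1 kb 48.7 and 41.9%. Within width classes the contrast was present at 500 bp to 1 kb, with 121 and 127 fragments in the middle against 91 and 96 in distal parts. It was small at 1 to 2 kb, with 205 and 210 against 192 and 200. Under 500 bp the medians were equal, at 22 and 24 in both places. Widths were not matched inside a class. The median was 797 bp in the middle against 764 bp in distal parts at 500 bp to 1 kb. At 1 to 2 kb it was 1195 against 1245 bp. The part of width in the contrast was not tested. The very wide regions went the other way in frequency. Those of 2 kb or more were 3.05% of the middle and 4.62% of distal parts, with a higher share in the middle on 2 of 12 chromosomes, 1 and 12.

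Height also went with isolation, differently in each place. The 1429 middle regions with no neighbour within 100 kb had medians of 141 and 148 fragments. The 628 distal regions of that open class had 72 and 76. Among regions with a neighbour within 10 kb the medians were 68 and 75 in the middle against 75 and 79 in distal parts. Between these, at a nearest neighbour of 10 to 100 kb, they were 123 and 131 against 99 and 105. In the middle, isolated regions were thus the tallest and close ones the lowest, while distal regions were tallest at intermediate spacing. Median widths ran in the same order as these heights. They were 883 bp in the middle against 747 bp in distal parts with no neighbour within 100 kb. At 10 to 100 kb they were 854 against 828 bp, and within 10 kb 725 against 774.5 bp. The part of spacing or of width in the contrast between middle and ends was not tested further.

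The replicates gave the same profile. Peak counts over the 20 parts of a chromosome had Pearson's r between 0.9986 and 0.9998 on the 12 chromosomes (n = 20 parts each), a description of lists that share the genome. A peak was taken as found again if it overlapped a peak of the other list over at least 50% of the shorter of the 2. The share found again lay between 89.0 and 90.6% across chromosomes for replicate 1 and between 89.8 and 92.1% for replicate 2. It was slightly higher in the middle, at 92.3 and 93.7%, than in distal parts, at 88.7 and 90.03%.

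The share found again followed height. With under 15 fragments over the summit, 36.7% of replicate 1 peaks and 37.9% of replicate 2 peaks were found. The shares were 72.2 and 67.1% at 15 to 19 fragments, 92.8 and 89.98% at 20 to 29, and 99.4 and 99.02% at 30 to 49. Of the peaks with 200 fragments or more, 8529 of 8529 in replicate 1 and 8907 of 8915 in replicate 2 were found. By width, 65.0 and 66.9% of peaks under 500 bp were found, against 97.4 and 97.8% at 500 bp to 1 kb. For the weakest peaks, a place without a call in the other list is not shown to lack the mark at this depth.

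Peaks without any overlap numbered 3330 (9.66% of peaks) in replicate 1 and 2876 (8.50%) in replicate 2. Their medians were 13 and 14 fragments, and 99.3 and 97.6% of them had fewer than 30. Of the peaks without overlap, 58.3 and 52.9% lay within 5 kb of a shared region, and no comparison value for other places was computed. Replicate 1 had 0 such peaks of 100 fragments or more and replicate 2 had 11.

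For regions seen in both lists the heights were close. Pearson's r of log2 fragments was 0.983 over the 29516 single-peak regions, against 0.929 for log2 fold and 0.293 for log2 local background. The median ratio of replicate 2 over replicate 1 was 1.04 for fragments and 0.922 for fold. A ratio more than 2-fold off its median was seen in 1.32% of regions for fragments and 9.16% for fold. Fold was thus less repeatable than fragments, and the local background by which it is divided had the lowest r. That background had a floor: 27.2% of replicate 1 and 25.1% of replicate 2 peaks were at the lowest value of their list. A narrow range lowers r, so the 3 values of r are not equal measures of agreement.

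The very top of the ranking was not stable, whichever measure ranked it. The 100 regions with the most fragments in replicate 1 and in replicate 2 had 33 in common, and the 100 of highest fold had 3. Of the top 1000, 713 were shared by fragments and 357 by fold, and of the top 5000, 4588 and 3577. The 5 regions with the most fragments in the lower of the replicates were, by that rule, high in both. They were chromosome 3 from 227531923 to 227533993 (1754 fragments in replicate 1 and 2222 in replicate 2), chromosome 9 from 1616391 to 1619300 (1849 and 1750), chromosome 8 from 173730803 to 173732275 (1732 and 1812), chromosome 2 from 167832320 to 167834367 (1580 and 1738) and chromosome 3 from 21337995 to 21339342 (1557 and 1535). They were 1348 to 2910 bp wide. Their ratios ran from 0.946 to 1.27, while the fold of the last of these was 402 and 180, with local backgrounds of 2.88 and 7.52. Their nearest neighbours were 5.32 to 454 kb away.

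Disagreement beyond 1.5-fold among tall regions ran in a single direction. Over the 8516 single-peak regions with a mean of at least 200 fragments (geometric mean of the replicates), 521 (6.12%, 95% Wilson interval 5.63 to 6.65%) had at least 1.5 times as many fragments in replicate 2, and 0 had at least 1.5 times as many in replicate 1, with an upper Wilson limit of 0.0451%. The lowest ratio of replicate 2 over replicate 1 among them was 0.772 and the highest 7.06, around a median log2 ratio of 0.04. At a limit of 2-fold the counts were 287 and 0. This limit and the 1.5-fold limit were chosen after the values were seen.

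How the tail changed with height depended on the replicate that set the height. By the mean of both, the share at least 1.5 times higher in replicate 2 was 1.47% at 100 to 200 fragments, 2.90% at 200 to 400, 8.86% at 400 to 700 and 16.2% at 700 or more. That mean holds the high replicate 2 value, which moves such regions into taller classes. By the fragments of replicate 1 alone, which has the opposite bias, the shares were 2.02%, 4.43%, 7.12% and 5.25%. From 200 fragments on, 0 regions went the other way under either grouping. At a mean of 30 to 100 fragments, where counting error is larger, 3.69% were higher in replicate 2 and 0.651% in replicate 1. All 12 chromosomes had such regions, at 4.23 to 9.07% of their regions of 200 fragments or more, and the shares in the middle and in distal parts were alike, at 6.08 and 6.11%.

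The regions of this tail were narrower than others of their height. Their median width was 903 bp, against 1080 bp for the rest of the 8516. By width, the share was 18.6% under 500 bp (11 of 59 regions), 9.33% at 500 bp to 1 kb, 3.88% at 1 to 2 kb and 2.62% at 2 kb or more. Their summits were 58 bp apart in the median, against 12 bp for the rest. The local background was 2.55 in replicate 1 and 2.01 in replicate 2 for the tail, against 2.30 and 3.01 for the rest. Median fragments were 365 in replicate 1 and 820 in replicate 2 in the tail, against 340 and 345 in the rest, and since the tail was picked by its ratio these heights are a description. The part of background, of summit position or of the library in this was not tested.

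**Figure D5:**
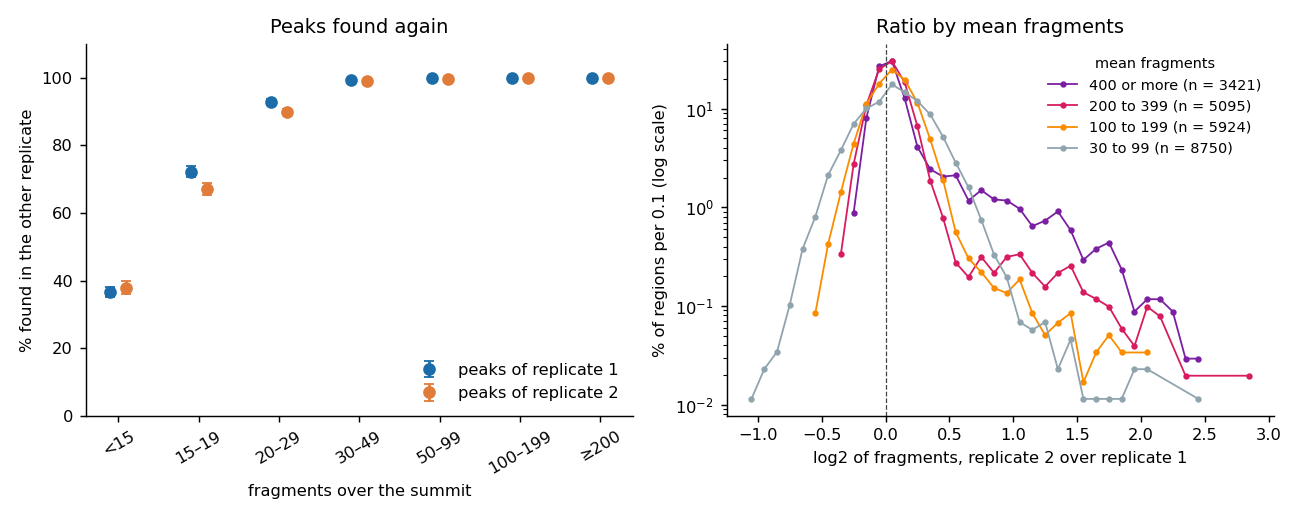
Left, percentage of H3K4me3 peaks found in the other replicate by fragments over the summit, with 95% Wilson intervals; 36.7 and 37.9% are found under 15 fragments and over 99% at 30 or more. Right, distribution of the log2 ratio of fragments, replicate 2 over replicate 1, per 0.1 on a log scale, for single-peak regions in 4 classes of mean fragments; the right flank extends past 2 in every class, while the left flank ends above -0.4 in the classes of 200 or more.

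Examples show the size of this tail. Among single-peak regions with at least 30 fragments in each replicate, the highest ratios were on chromosome 12 from 100947944 to 100948826 (142 fragments in replicate 1 and 1002 in replicate 2), on chromosome 2 from 171868786 to 171869519 (280 and 1539) and on chromosome 11 from 264273894 to 264274115 (30 and 163). Their peaks were matched within 38, 56 and 9 bp at the summit. The lowest ratios were far nearer to 1, at 0.522, 0.565 and 0.585, and belonged to regions of 53 to 69 fragments in replicate 1 on chromosomes 2, 5 and 9. These 6 regions were also picked after the values were seen.

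When regions of several peaks are admitted, the extreme ratios are larger and of another kind. The highest were on chromosome 11 from 271464162 to 271464726 (45 and 1398 fragments), chromosome 12 from 87204640 to 87205141 (31 and 656) and chromosome 3 from 7947105 to 7948154 (33 and 452). The lowest were on chromosome 6 from 53007973 to 53008326 (685 and 31), chromosome 12 from 252501612 to 252501979 (527 and 40) and chromosome 1 from 323248041 to 323248990 (324 and 32). In all 6 the summit of the taller peak lay outside the shared interval, 964 to 1865 bp from the other summit. None of the 6 is formed by a single peak of each list, so the fragments compared there are not those of the same place.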

How the data were processed

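Leaf chromatin was cross-linked with 1% formaldehyde, sonicated, precipitated and read as 150 bp pairs, per the labels' protocols. The submitters' processing notes name MACS2 2.2.7.1, BWA 0.7.17, deepTools 3.3.0 and Trimmomatic 0.38 without settings. Each library has its own deposited peak list against an input. The deposited values are a fold (a linear ratio over local background), the −log10 of a q-value and of a p-value, and a summit. The total depth per library is unknown. From fold and p-value, read as the Poisson chance of more fragments, the fragments over the summit came out whole within 0.01 for 100% of H3K4me3 peaks.

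Overlapping peaks were merged, bases covered in both replicates formed the shared regions, and 61 and 113 peaks outside the chromosomes stayed out. Intervals are 95% Wilson intervals and cover counting error only. Marks were compared by exact two-sided permutation of labels over 6 libraries, adjusted by the Benjamini-Hochberg method, threshold 0.05. Regions were named by rank: the 5 with the most fragments, the 5 longest, the 3 highest and 3 lowest replicate ratios, the 3 tightest runs of 10 and the 3 longest gaps. The members, lists and classes were chosen with earlier results of these data known. Alternatives were limits on q, fold and background, joining, other overlap rules, other distal widths, bases of either replicate, a replicate block and leaving out a replicate. Python 3.11.15 was used with numpy, scipy and pandas, and the statistics were tested on simulated data. No genome of the lists' build was used here, so no sequence or gene is given.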

Additional observations from a re-analysis of the deposited data

Results flagged for a closer look

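Signal was also present outside the 12 chromosomes, on sequences whose names start with HiC_scaffold and which enter no comparison above. There, 52 shared H3K4me3 regions were found, from 61 peaks of replicate 1 on 10 such sequences and 113 peaks of replicate 2 on 16. The median peak had 37 fragments in replicate 1 and 51 in replicate 2. The authors' median fold was 12.4 in replicate 1 and 3.15 in replicate 2, and the local background 1.74 and 9.003. A background above 5 times the lowest of the library was seen at 7 of the replicate 1 and 59 of the replicate 2 peaks. The part of that background in the difference between the replicates was not tested.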

How the results depend on the processing

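The comparison with the other marks kept its direction in 29 of 30 alternative values, and the exact permutation could not reach the threshold in any. The exception was the summit offset, which turned to 2.13 percentage points (exact permutation p = 0.133) with a −log10 q of at least 10. The same limit left the direction of the other measures but changed the size of 2 differences strongly. In the median gap it was -645 kb, against -24.6 kb in the main setting. In empty bins it was -49.5 points, against -5.97 points. The causes were not tested. The replicate block leaves 9 arrangements and cannot change a difference in this balanced design, so only its p differs. With it, the difference in median width was 447 bp (exact permutation p = 0.111), in the share of peaks of 1 kb or more 24.9 points (0.222), in the median gap -24.6 kb (0.667), in the summit offset -1.29 points (0.556) and in empty bins -5.97 points (0.444). The numbers come from the titles and nothing says that they mark a shared plant or day.

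The number of shared regions stayed within 1.5 times in all alternatives run, from 23699 to 36725. A −log10 q of at least 10 gave a median width of 873 bp, a gap of 27.1 kb, a summit distance of 17 bp, a distal share of 60.8% and 94.8% of peaks found. Joining within 1 kb gave 876 bp, 26.2 kb, 60.8% and 92.7% found. Bases of either replicate gave 850 bp, 16.97 kb and 62.4%, and regions of at least 500 bp gave 931 bp, 32.6 kb and 60.3%. A background of at most 5 times the lowest gave a distal share of 61.4%. Leaving out either replicate gave widths of 815 to 839 bp, gaps of 18.6 to 19.4 kb and distal shares of 61.9 to 62.0%. Ends of 10 and 25% held 49.2 and 79.1% of regions. An overlap of 50% of the longer peak found 85.1%. Chosen after seeing the data, the same limits left the median height of the middle above that of distal parts by 20 to 32.5 fragments. The tail of tall regions higher in replicate 2 was 3.37% at a limit of 2-fold, 5.29% of the regions with at least 200 fragments in replicate 1, and 10.9% from a mean of 400 fragments, a limit that the high replicate 2 values help to pass.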

Other observations

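The strongest peaks without a partner differed between the lists. Replicate 2 held unmatched peaks of 974, 572, 575 and 331 fragments on chromosome 7, from 22331215 to 22331702, from 22334154 to 22334369, from 22736190 to 22736426 and from 22729274 to 22729737. Their local backgrounds were 402, 355, 351 and 171 fragments, and the authors' folds 2.42, 1.61, 1.64 and 1.93. A further unmatched peak on chromosome 8 from 120734524 to 120735029 had 492 fragments over a background of 230. The strongest unmatched peak of replicate 1, on chromosome 3 from 16413038 to 16413245, had 75 fragments over a background of 2.88 and a fold of 19.6. Local background above 5 times the lowest was seen at 166 peaks of replicate 1, of which 95.2% were found in replicate 2, and at 162 peaks of replicate 2, of which 76.5% were found in replicate 1. The highest background of any peak on the chromosomes was 402 fragments in replicate 2 and 16.1 in replicate 1.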
